A study of Mus musculus with 384 samples.

Results

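Dopamine neurons with counted reads of *Lypd1* were compared with dopamine neurons without any, over all other genes. Single cells came from 8 DATIRESCre;Ai9 mice on the C57BL6/J strain, 5 labelled male and 3 labelled female, aged postnatal day 24 to 36. In these animals, Cre recombinase is made from the dopamine transporter locus and switches on the red reporter tdTomato, so a labelled cell is one that used this locus at some time. Both classes came from the same animals and so share these alleles and the same handling, and the labels name no drug or lesion. Cells were dissociated from midbrain dissected together with the hypothalamus, sorted as tdTomato-positive and propidium iodide-negative, and captured on 1 Fluidigm C1 chip per mouse, so that animal and capture run cannot be told apart. Of 384 cells, 209 had at least 500000 reads counted on genes and were retained. *Lypd1* was detected (1 read or more) in 85 of these 209 cells and undetected (0 reads) in 124, and a stricter class held the 24 cells with 10 reads or more. The members of each class were thus chosen by their measured *Lypd1* reads, and *Lypd1* itself was left out of every test.

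*Lypd1*, also named Lynx2, encodes a protein of the Ly6/lynx family, which is held on the outer membrane by a lipid anchor and binds nicotinic acetylcholine receptors. Cholinergic input through these receptors excites midbrain dopamine neurons, and lynx proteins are known to dampen such receptors. The gene lies on chromosome 1 at 125867622 to 125913175 in the RefSeq annotation of GRCm38. Dopamine neurons of the ventral tegmental area (VTA) and substantia nigra (SNC) fall into subtypes told apart by marker genes. In the published marker lists used in the study's own code, *Lypd1* stands for the subtype VTA1, whereas *Neurod6*, a neuronal transcription factor, and *Grp*, the gastrin-releasing peptide, stand for VTA2. The study set *Lypd1* against *Neurod6* in VTA sections after injection of saline or a dopaminergic toxin, to ask whether surviving neurons turn on *Neurod6*. It saw *Lypd1* within the VTA mostly in the parabrachial pigmented nucleus, and also across the SNC. Here only the overlap of both transcripts was counted, in sequenced cells of wider origin and at another threshold, so the shares are not comparable.

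Most cells with *Lypd1* held few reads of it. The count was exactly 1 in 24 cells, 2 to 9 in 37 cells, and 10 to 88 in 24 cells, and the last 24 cells held 79.9% of the 879 *Lypd1* reads. As CPM, the number of reads of a gene scaled to a total of 1000000 reads, the level in detected cells ran from 0.866 through a median of 4.81 to 121, and the median of the stricter class was 31.1 CPM. Just inside the limit of detection lay the 24 cells with 1 read, and just outside it the cells with 0 reads. At the stricter limit, 2 cells had exactly 10 reads and 2 had exactly 9. A cell at 0 reads is not shown to lack the transcript: at the depth of the undetected cells, 3 reads correspond to between 1.94 and 5.99 CPM, a range that holds the median of the detected cells.

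**Figure D1:**
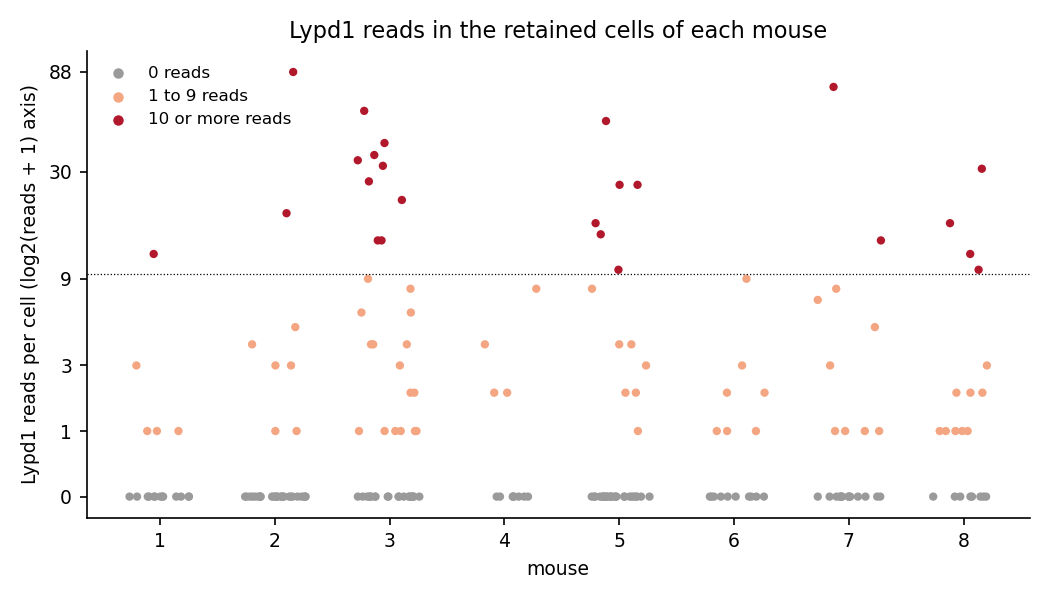
*Lypd1* reads in each of the 209 retained cells, by mouse (horizontal axis) on a log2(reads + 1) vertical axis; each point is a cell, colored by 0 reads, 1 to 9 reads, or 10 or more reads, with a dotted line at the stricter limit. Cells of 0 reads are present in every mouse, cells of 10 or more reads are absent from mice 4 and 6, and the highest cell, in mouse 2, has 88 reads.

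The share of retained cells with *Lypd1* was 40.7% (exact binomial 95% interval 33.9 to 47.7%, which covers counting error only). It was lowest in mouse 2 (23.5%, 8 of 34 cells) and mouse 1 (27.8%, 5 of 18), followed by mouse 4 (33.3%, 4 of 12), mouse 5 (34.2%, 13 of 38), mouse 6 (41.2%, 7 of 17), and mouse 7 (41.7%, 10 of 24). Mouse 3 (55.6%, 25 of 45) and mouse 8 (61.9%, 13 of 21) had the highest shares of *Lypd1*-detected cells. The exact interval of mouse 8 (38.4 to 81.9%) overlapped that of mouse 2, the lowest (10.7 to 41.2%), and so did those of all neighbors in this order.

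Depth was set beside the classes because a single read decides between them. The median total was 756222 reads in detected and 784756 in undetected cells. Averaged over mice, the class medians differed by -18763 reads (SD 108850, n = 8 mice), and the number of detected genes by 240.5 (SD 521.7), from 8827 in undetected to 9068 in detected cells. The cDNA concentration measured before library preparation averaged 4.08 ng/µl against 3.89 ng/µl. None of the 3 measures passed (two-sided exact permutation test over mice, sign flips, adjusted p = 0.586 for each). The difference in total rested on single mice: it was -51141 reads without mouse 2 (exact permutation p = 0.0469, adjusted p = 0.141), where that in detected genes was 93.1, and 3840 reads without mouse 6. With each cell thinned at random to 500000 reads, 77 cells (36.8%) kept a *Lypd1* read.

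Cells of both classes had the transcripts that define dopamine neurons. The median of *Th*, the rate-limiting enzyme of dopamine synthesis, was 6340 CPM in detected and 6471 CPM in undetected cells, and that of *Slc6a3*, the dopamine transporter, was 3133 against 2822 CPM. *Slc6a3* reached 10 reads in 84 of 85 detected and 121 of 124 undetected cells. *Th* was under 500 CPM in 10 detected cells (11.8%) and 13 undetected cells (10.5%). In the sums per mouse and class, microglial markers together stayed at or under 3.65 CPM, with *Tyrobp* and *Tmem119* at 0 in all detected sums. Oligodendrocyte markers ranged from 20.1 to 3586 CPM (median 54.5) in detected and from 33.2 to 6298 CPM (median 79.9) in undetected sums, although the sort was for tdTomato. Astrocyte markers ranged from 127 to 1440 against 290 to 713 CPM, and endothelial and mural markers from 0 to 1.2 against 0 to 961 CPM. The part of these other transcripts in the differences below was not tested, except where a value without them is given.

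*Neurod6*-positive cells (10 reads or more) were less frequent among cells with *Lypd1*. Of the detected cells, 11 of 85 were *Neurod6*-positive (12.9%, interval 6.64 to 22.0%), against 38 of 124 undetected cells (30.6%, interval 22.7 to 39.6%). Within mice the share was lower among detected cells in 7 of 8 animals, and in mouse 4 it was 0 in both classes. The mean difference was -23.3 percentage points (SD 26.2, n = 8 mice, two-sided exact permutation test over mice, p = 0.0156, adjusted p = 0.0313 over the 2 genes tested this way). Mouse by mouse, the difference was -23.1 points in mouse 1, -22.1 in mouse 2, -4 in mouse 3, 0 in mouse 4, -12.3 in mouse 5, -20 in mice 6 and 7, and -84.6 in mouse 8. Mouse 8 stood apart, since all 8 of its undetected cells were *Neurod6*-positive, whereas 2 of its 13 detected cells were. Without mouse 8, the mean difference was -14.5 points (adjusted p = 0.0625, exact), and leaving out mouse 2, 5, 6, or 7 also gave an adjusted p of 0.0625, at differences of -23.4 to -24.8 points. The same exact test did not pass with positive cells from 1 read (-19.9 points, adjusted p = 0.0703). Nor did it pass in cells with at least 500 CPM of *Th* (6 mice, -28.0 points, adjusted p = 0.0625).

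*Grp*-positive cells showed a like difference. They made up 22 of 85 detected cells (25.9%, interval 17.0 to 36.5%) and 55 of 124 undetected cells (44.4%, interval 35.4 to 53.5%). The mean difference within mice was -22.9 points (SD 23.3, n = 8 mice, two-sided exact permutation test, p = 0.0313, adjusted p = 0.0313). It was negative in 7 mice, from -61.5 points in mouse 8 to -10.8 in mouse 1, and in mouse 3 the share was higher among detected cells, at 24% against 10%. Leaving out mouse 2, 5, 6, 7, or 8 raised the adjusted p to 0.0625 (exact), with differences from -24.1 to -17.4 points, the last without mouse 8.

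**Figure D2:**
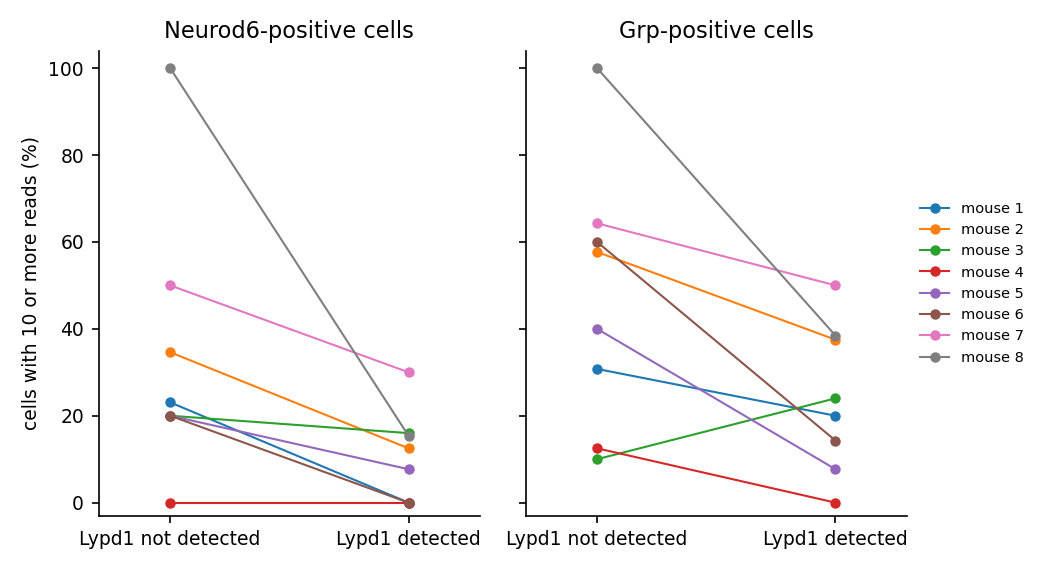
Percent of cells with 10 or more reads of *Neurod6* (left) and *Grp* (right) among *Lypd1*-undetected and *Lypd1*-detected cells; each line joins both classes of 1 mouse. Lines fall in 7 of 8 mice for each gene, *Neurod6* is flat at 0 in mouse 4, *Grp* climbs from 10% to 24% in mouse 3, and mouse 8 starts at 100% for both genes.

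*Neurod6* and *Grp* often occur in the same cell, so these shares are not separate observations. Cells positive for both made up 9 of 85 detected cells (10.6%) and 34 of 124 undetected cells (27.4%). *Grp*-positive cells without *Neurod6* were at 15.3% (13 cells) against 16.9% (21 cells), and these shares had overlapping intervals (8.4 to 24.7% and 10.8 to 24.7%). Cells with neither transcript made up 71.8% of detected and 52.4% of undetected cells. The classes were not exclusive: *Lypd1* was detected in 11 of 49 *Neurod6*-positive cells (22.4%) and in 22 of 77 *Grp*-positive cells (28.6%), against 46.3% of 160 *Neurod6*-negative and 47.7% of 132 *Grp*-negative cells. By *Lypd1* reads, *Neurod6*-positive cells were 30.6% at 0 reads, 14.8% at 1 to 9 reads, and 8.33% at 10 or more. The corresponding shares for *Grp* were 44.4%, 23.0%, and 33.3%. For the stricter class, compared over 3 mice, the within-mouse differences were -37.4 points for *Neurod6* and -25 points for *Grp* (exact p = 0.25 and 0.75, where 0.25 is the smallest p that 3 mice allow).

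Across all genes, no gene passed between detected and undetected cells. Counts were summed per mouse and class, giving 8 detected sums of 2675218 to 18416564 reads and 8 undetected sums of 5824437 to 21744407 reads. CPM of single genes in these sums are scaled by the TMM factors of each comparison, which differ slightly between comparisons, while CPM of single cells and of summed marker lists are not. Of 12429 genes tested with edgeR's quasi-likelihood test, 0 (0%) had a Benjamini-Hochberg adjusted p under 0.05, and the smallest adjusted p was 0.999. At an unadjusted p under 0.05 there were 376 genes (3.03%), of which 209 (1.68%) had a higher and 167 (1.34%) a lower level in detected cells. DESeq2 also called 0 genes, with 586 (4.71%) at an unadjusted p under 0.05, and limma called 0, with 455. With the mouse as a block, edgeR called 0 genes, with 465 (3.74%) at an unadjusted p under 0.05. The fitted differences centered on a median of 0.02 on the log2 scale. All values of single genes from this comparison are therefore levels and differences that did not pass the test.

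The genes of smallest p that moved the same way in all 8 mice came from varied families. Such genes with a mean of 10 CPM or more in the higher class numbered 40 above and 53 below, while over all tested genes 40 (0.322%) were higher and 59 (0.475%) lower in every mouse. The 12 leading genes with higher levels were *Usp36*, *Zfp959*, *Cntnap2*, *Scaper*, *Trub1*, *Abca8b*, the pseudogene *Vmn2r-ps129*, *Ano3*, *Trio*, *Slc35f6*, *Hibch*, and *Caprin1*. Their log2 differences ran from 0.33 to 2.56, at unadjusted p of 0.00249 to 0.0329. Reads of *Vmn2r-ps129* may be shared with near-identical copies of its family, so its value is uncertain.

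*Cntnap2*, a neurexin-family adhesion protein that clusters potassium channels on axons, was at 94.2 to 180 CPM (median 145) in detected and 73.1 to 112 CPM (median 92.7) in undetected sums. The ranges overlapped. A higher level in detected cells of every mouse was a condition for naming *Cntnap2* and the other leading genes, so it adds no support. The log2 difference of *Cntnap2* was 0.56 (SE 0.16, unadjusted p = 0.00309, adjusted p = 0.999). *Usp36*, a nucleolar deubiquitinase, was at 23.8 to 74.3 CPM (median 44.1) against 12.5 to 32.6 CPM (median 19.2), a log2 difference of 1.10 (SE 0.32). *Scaper*, a protein that binds cyclin A in the cytoplasm, was at 92.5 to 219 CPM (median 151) against 29.1 to 135 CPM (median 84.7). *Zfp959*, a zinc-finger gene, had the largest difference of these genes, 2.56 (SE 0.75), with a range of 1.92 to 55.0 against 0.523 to 8.73 CPM. It reached 10 reads in 16 of 61 cells with 1 to 9 *Lypd1* reads but in 1 of 24 cells with 10 or more and 8 of 124 cells with 0. *Itgb1*, the beta-1 integrin subunit, had the smallest p in the fit with the mouse as a block among genes higher in every mouse. Its log2 difference there was 0.87 (unadjusted p = 0.0012). Pooled over mice, it reached 10 reads in 61.3% of cells with 0 *Lypd1* reads, 85.2% with 1 to 9, and 91.7% with 10 or more.

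Among genes with lower levels in detected cells, *Oaz2*, an ornithine decarboxylase antizyme that limits polyamine synthesis, had the only ranges over mice that did not touch (1 gene of 12429, 0.00805%). Its detected sums lay at 54.2 to 78.0 CPM (median 72.8) and its undetected sums at 78.1 to 118 CPM (median 95.2), a log2 difference of -0.45 (SE 0.16, unadjusted p = 0.00984). Without the TMM factors the ranges touched, at 52.0 to 77.4 CPM against 77.2 to 122 CPM. *Rasa3*, a GTPase-activating protein for Ras and Rap, came first in this direction, at 0 to 17.3 CPM (median 3.64) against 5.06 to 62.5 CPM (median 27.1), a difference of -2.53 (SE 0.75, unadjusted p = 0.00312). *Adora1*, the inhibitory adenosine A1 receptor, was at 1.46 to 27.4 CPM (median 9.57) against 3.92 to 79.8 CPM (median 37.5). Its difference was -1.68 (SE 0.65, unadjusted p = 0.0185). In the block fit it came first among genes lower in every mouse, at -1.79 (unadjusted p = 0.00029, adjusted p = 0.998). *Rgs6*, which shortens signaling of inhibitory G proteins and acts on dopamine autoreceptors, was at 1.17 to 26.6 CPM against 7.74 to 43.0 CPM. *Wdr1*, an actin-disassembly factor, *Ppt1*, a lysosomal thioesterase, and *Dmd*, dystrophin, had smaller differences of -0.53, -0.57, and -0.52. The other leading genes of this direction were *LOC102639202*, *Ccdc86*, *Ddx54*, *Lemd1*, *Acsf3*, and *Alkbh6*.

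**Figure D3:**
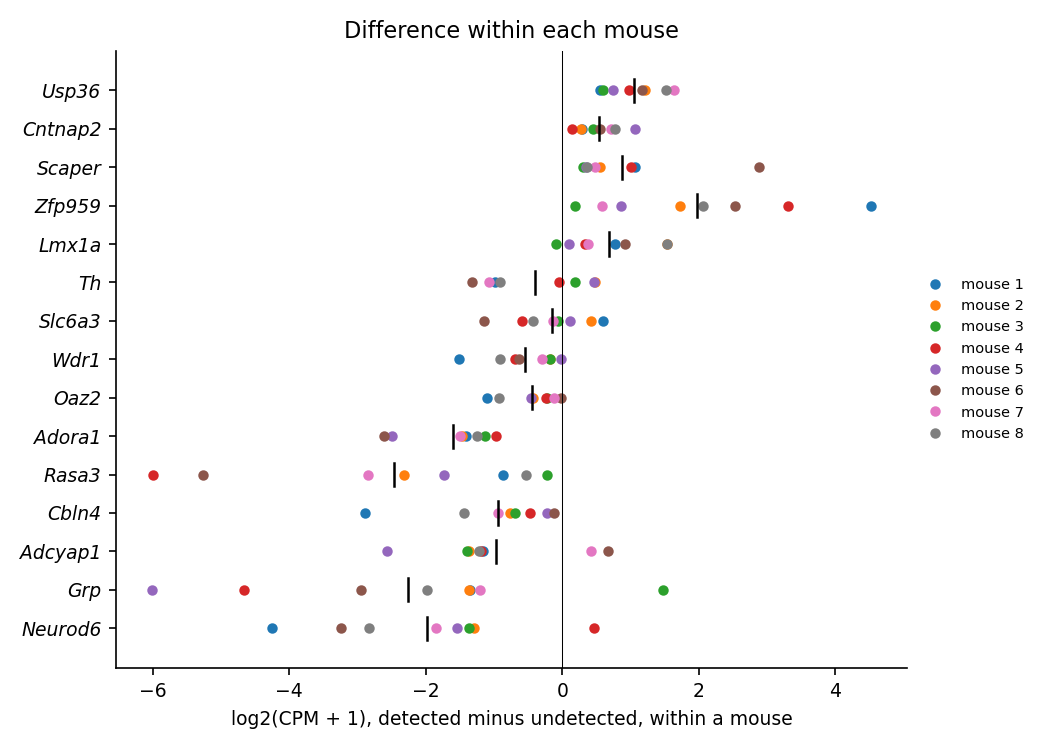
Difference in log2(CPM + 1), detected minus undetected, within each of 8 mice (points) with the mean (black bar) for 15 genes. *Usp36*, *Cntnap2*, *Scaper*, and *Zfp959* lie above 0 in every mouse and *Wdr1*, *Oaz2*, *Adora1*, *Rasa3*, and *Cbln4* below 0 in every mouse, which was a condition for naming them. *Th* and *Slc6a3* fall on both sides, and no gene shown passed the test across all genes.

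Marker genes of the VTA2 subtype, many of them shared with VTA3 or SNC, had lower fitted levels in detected cells. The 3 published lists that name VTA2 (VTA2 alone, VTA2 with VTA3, and VTA2 with SNC) held 17 tested genes, and all 17 were below 0, where 47.9% of all tested genes were. The median of these lists kept its sign with DESeq2 size factors and with equal weight per cell, and for the SNC and VTA2 list it turned to 0.14 in male mice alone. Without mouse 4, the median of the SNC and VTA2 list was -0.64, against -1.02 in all mice. In the 5 mice run on the C1 machine SMEAGOL, the VTA2 and VTA3 list had 3 genes on each side of 0 (median -0.26, against -0.80 in all mice), and 1 of 5 genes of the VTA2 list was above 0. Over the 17 genes the median was -1.01 against 0.02 over all genes, 5 of the 17 (29.4%) had an unadjusted p under 0.05, against 3.03% over all genes, and 0 had an adjusted p under 0.05. With the mouse as a block, 8 of the 17 had an unadjusted p under 0.05, against 3.74% over all genes, and 0 an adjusted p under 0.05. *Neurod6* was at 0.377 to 27.7 CPM (median 11.4) in detected and 0 to 167 CPM (median 33.6) in undetected sums, a log2 difference of -2.21 (SE 0.92, unadjusted p = 0.0267). *Grp* was at 0 to 76.9 CPM (median 27.0) against 6.21 to 276 CPM (median 108), a difference of -1.79 (SE 0.81, unadjusted p = 0.0408). Both were lower in detected cells of 7 of 8 mice. The orphan receptor *Gpr83* differed by -1.10 (SE 0.65, unadjusted p = 0.109), and the homeobox gene *Otx2* by -0.44, with 4 mice on each side. With the mouse as a block, edgeR differences were -2.34 for *Neurod6*, -2.19 for *Grp*, -1.12 for *Gpr83*, and -1.17 for *Otx2*. Their unadjusted p were 0.00299, 0.0215, 0.00739, and 0.237, and none had an adjusted p under 0.05.

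The genes shared by VTA2 and VTA3 included *Adcyap1*, the neuropeptide PACAP, at 16.6 to 87.9 CPM (median 44.2) against 45.2 to 194 CPM (median 62.8). Its difference was -1.01 (SE 0.41, unadjusted p = 0.0243), lower in detected cells of 6 of 8 mice. *Lpl*, lipoprotein lipase, differed by -1.03 (SE 0.47) and was lower in 7 mice, and *Cbln4*, a secreted synapse organizer, by -1.03 (SE 0.50) and was lower in all 8. Among genes shared by VTA2 and SNC, *Aldh1a1*, the retinaldehyde dehydrogenase of ventral dopamine neurons, was at 1.51 to 3443 CPM (median 1622) against 1379 to 5065 CPM (median 3438). Mouse 4 held the lowest detected value. The edgeR difference was -1.24 (SE 0.76, unadjusted p = 0.12), and -2.16 with the mouse as a block (unadjusted p = 0.0388). Pooled over mice, *Aldh1a1*-positive cells were 88.7% at 0 *Lypd1* reads, 67.2% at 1 to 9, and 58.3% at 10 or more. *Igfbp2*, a carrier of insulin-like growth factors, was lower in detected cells of all 8 mice (difference -2.07, SE 0.91, unadjusted p = 0.0355).

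Because *Neurod6* and *Grp* are themselves on these lists, other members were also compared in cells with fewer than 10 reads of either gene (7 mice, 11056 genes tested with edgeR, 0 called, 268 at an unadjusted p under 0.05). There, *Gpr83* differed by -1.39, *Adcyap1* by -1.03, *Lpl* by -0.74, and *Cbln4* by -0.82, at unadjusted p of 0.13 to 0.46. Of 14 tested members of the 3 lists, 12 were below and 2 above 0, both of the latter from the VTA2 and VTA3 list. The medians were -0.64 for VTA2 (-1.10 in all cells), -0.44 for VTA2 and VTA3 (-0.80 in all cells), and -0.28 for SNC and VTA2 (-1.02 in all cells). *Aldh1a1* differed by -0.19 in these cells (unadjusted p = 0.86). In class sums, fewer cells that express a gene and less RNA of it per cell cannot be told apart.

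Of the markers shared by SNC and VTA1, all 7 tested genes (*Ndnf*, *Chrna5*, *Epha4*, *Kcns3*, *Sox6*, *Cplx1*, and *Nrip3*) were above 0, where 52.1% of all tested genes were, with a median of 0.45, and 0 of them had an unadjusted p under 0.05. In cells without *Neurod6* and *Grp* and with the mouse as a block, 5 of 7 were above 0. In the stricter class 6 of 7 were above 0 (median 0.41), but 4 of 7 without mouse 8 (median 0.02) and 2 of 7 in thinned cells (median -0.15, and -0.31 with the block). The stricter fit in thinned cells held mice 3 and 5 only, so thinning and the loss of mouse 8 cannot be told apart there. *Ndnf*, a secreted neurotrophic factor, was at 0.756 to 194 CPM (median 57.3) in detected and 0.105 to 112 CPM (median 19.0) in undetected sums, a difference of 1.37 (SE 0.84, unadjusted p = 0.118). Mouse 3 held the highest undetected value. For VTA1 itself, the lists hold *Pou3f1*, at 0.54 (SE 0.59), and *Cd9*, at 0.74 (SE 1.03); with the mouse as a block *Cd9* was at -0.58, so the direction of *Cd9* turned with the block. The genes shared by VTA1 and VTA3 were on the other side, with 4 of 5 below 0 (median -0.12). In the stricter class, 4 of 5 of them were above 0 (median 0.35). Of the genes of SNC alone, 4 of 7 were below 0 (median -0.05). The VTA3 list had 3 of 4 tested genes below 0 (median -0.38, and -0.96 in the stricter class). Of the markers of classes other than SNC, 3 of 3 were below 0 (median -0.59), but 2 of 3 were above 0 in the stricter class. Of the VTA4 list, 3 of 4 tested genes were above 0, among them *Lmx1a*, a transcription factor that specifies midbrain dopamine neurons. *Lmx1a* was at 44.5 to 121 CPM (median 78.5) against 34.4 to 73.5 CPM (median 44.3), higher in 7 of 8 mice (difference 0.73, SE 0.25, unadjusted p = 0.00764).

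**Figure D4:**
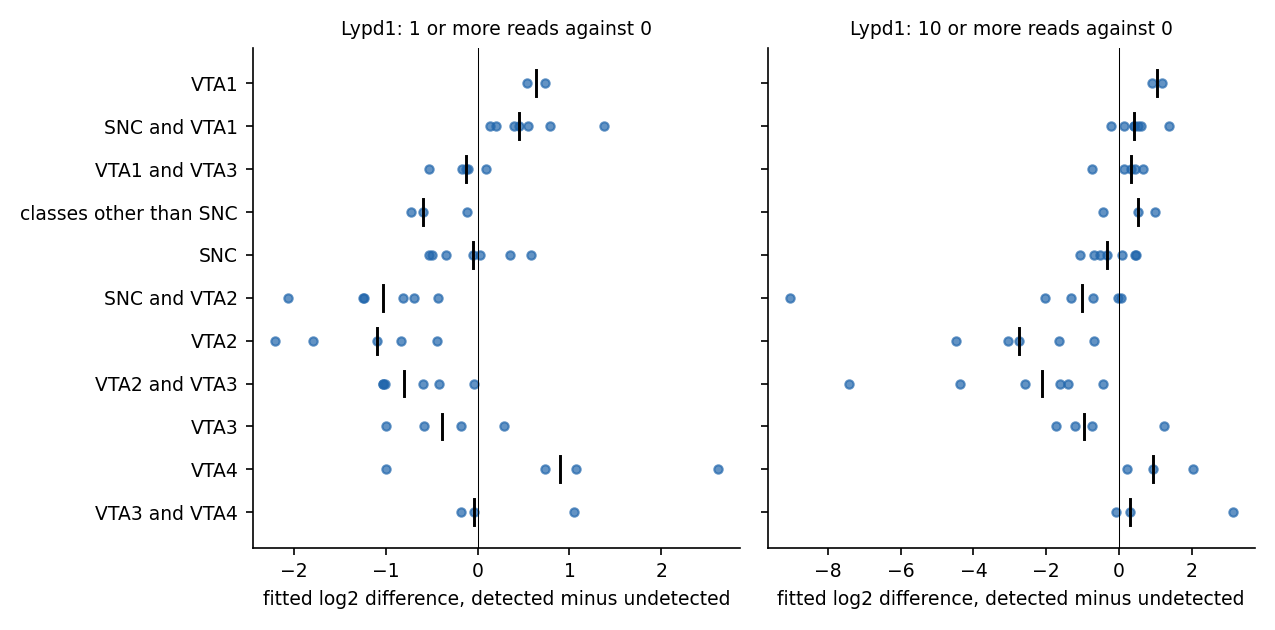
Fitted log2 differences, detected minus undetected, of the published subtype markers (points) with the median of each list (black bar), for 1 or more *Lypd1* reads against 0 (left) and 10 or more against 0 (right). The 3 lists that name VTA2 lie below 0 on the left and, for 16 of 17 genes, on the right, and the SNC and VTA1 list lies above 0 on the left; no gene shown passed the adjusted threshold in either comparison.

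As for all 12429 tested genes, 0 of which passed, no gene tied to the known action of lynx proteins passed. Of 8 tested nicotinic receptor subunits, 4 were above and 4 below 0 (median 0.05), and with the mouse as a block 1 was above and 7 below (median -0.42), so the balance turned with the block. Other Ly6/lynx proteins and nicotinic chaperones were 3 above and 4 below (median -0.11). The genes of dopamine synthesis, packaging, uptake, and breakdown were 3 above and 8 below, with a median of -0.09, and *Th* (-0.26, SE 0.28), *Slc6a3* (-0.13, SE 0.24), *Slc18a2* (-0.16, SE 0.22), and *Ddc* (-0.09, SE 0.22) differed by less than their SE. Transcription factors of midbrain dopamine neurons were 8 above and 9 below. Of 14 calcium-binding proteins and sensors, 12 were below 0, where 47.9% of all tested genes were, with a median of -0.17, while in the stricter class 7 were above and 7 below (median 0.03).

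In 6 lists of channels, receptors, autoreceptor partners, and trophic factors, 4 of 76 tested genes (5.26%) had an unadjusted p under 0.05, against 3.03% over all genes, namely *Bdnf*, *Grik3*, *Kcnj9*, and *Rgs6*. *Bdnf*, the brain-derived neurotrophic factor, was at 64.0 to 209 CPM (median 117) in detected and 3.28 to 138 CPM (median 59.8) in undetected sums, higher in 7 of 8 mice (difference 1.05, SE 0.44, unadjusted p = 0.0291). Pooled over mice, it reached 10 reads in 41.9% of cells with 0 *Lypd1* reads, 68.9% with 1 to 9, and 83.3% with 10 or more. *Grik3*, a kainate receptor subunit, differed by 1.24 (SE 0.44), with mouse 1 highest at 362 CPM, and *Kcnj9*, a subunit of the potassium channel opened by dopamine autoreceptors, by 1.20 (SE 0.47). Outside these lists, *Atp13a2*, a lysosomal polyamine transporter mutated in a form of parkinsonism, differed by -0.94 (SE 0.31, unadjusted p = 0.0064) and was lower in detected cells of 6 mice. *Gal*, the neuropeptide galanin, had a large difference of 3.69 (SE 1.44) that rested on few animals, since its median was 4.04 CPM in detected and 2.17 CPM in undetected sums and its highest value 225 CPM. Immediate early genes, which respond to dissociation, were above 0 in 11 of 12 cases (median 0.67), with summed levels of 151 to 7637 CPM (median 619) against 216 to 2703 CPM (median 435); their part in these differences was not tested. In the stricter class described next, the same list was 3 above and 9 below 0 (median -0.48).

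Cells with at least 10 *Lypd1* reads were compared with undetected cells in the 3 mice that had 3 or more of each, namely mouse 3 (9 against 20 cells), mouse 5 (6 against 25), and mouse 8 (4 against 8). All 3 were male and run on the same C1 machine. Of 12299 genes, edgeR called 0 (0%), with a smallest adjusted p of 0.16 for *Adcyap1* and 369 genes (3%) at an unadjusted p under 0.05, 131 higher (1.07%) and 238 lower (1.94%). With the mouse as a block it called 0 (445, or 3.62%, at an unadjusted p under 0.05), limma called 0 (461), and DESeq2 called 37 of 12193 genes (0.303%), 6 higher and 31 lower, with 579 (4.71%) at an unadjusted p under 0.05. In every one of the 3 mice, 1321 genes (10.7%) were higher and 1756 (14.3%) lower, so a like direction in 3 mice marks no gene by itself. In an alternative chosen after the data were seen, which took mice with at least 2 cells of each class and so added mice 2 and 7, edgeR called 5 of 11884 genes (0.0421%), all lower: *Adcyap1*, *Igfbp4*, *Sparc*, *Ppp1r17*, and *Ccnd2*. With the mouse as a block, 2 of these (0.0168%), *Adcyap1* and *Igfbp4*, were called (adjusted p = 0.0484 for both).

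Reads of *Adcyap1* were few in the stricter class. Its levels in mice 3, 5, and 8 were 0.309, 0.754, and 1.22 CPM in cells with 10 or more *Lypd1* reads and 45.2, 195, and 131 CPM in undetected cells. The classes did not overlap, as for 7.97% of all tested genes, and the log2 difference was -7.43 (SE 0.82, unadjusted p = 1.3e-05, adjusted p = 0.16). Over 5 mice it was -6.76 (adjusted p = 0.00391). Of the 24 cells of the stricter class, 0 had 10 *Adcyap1* reads, which allows a share of up to 12.5% by the limit of 3 counts and 14.2% by the exact binomial interval, whereas 20 of 61 cells with 1 to 9 *Lypd1* reads (32.8%) and 45 of 124 with 0 (36.3%) had them. *Ccnd2*, cyclin D2, was at 2.93, 0.943, and 1.22 CPM against 51.3, 39.4, and 134 CPM (difference -5.42, SE 0.80, adjusted p = 0.673, over 5 mice -5.79 and adjusted p = 0.0327).

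A further group of genes had at most 1 read in the whole stricter class of 3 mice. *Igfbp4*, a carrier of insulin-like growth factors, had 1 read among 15111682 in the stricter class and 2584 among 42890384 in undetected cells, a ratio of 910 (95% counting interval 163 to 35974). *Sparc*, a secreted matrix protein, had 1 against 633 reads (ratio 223, interval 39.9 to 8823), and *Ppp1r17*, an inhibitor of protein phosphatases, 1 against 794 (ratio 280, interval 50.1 to 11063). Among undetected cells, *Igfbp4* reached 10 reads in 34 of 124, *Sparc* in 25, and *Ppp1r17* in 23, so that these transcripts were present in a minority of that class too. The collagen *Col23a1* had 1 against 1158 reads, and 1 cell of the stricter class in another mouse reached 10 reads of it. *Gpc3*, a membrane proteoglycan, had 0 against 829 reads. It was 97.4-fold lower against a floor of 3 reads over the class, and at least 79.0-fold lower by the 95% counting interval. The value against the floor is not comparable with the ratios over 1 read, which against the same floor were 303 for *Igfbp4*, 74.3 for *Sparc*, and 93.3 for *Ppp1r17*.

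Higher levels in the stricter class were found for *Rph3a*, rabphilin 3A, which binds Rab3 on synaptic vesicles. It was at 252, 271, and 502.7 CPM in mice 3, 5, and 8 against 69.0, 95.2, and 59.4 CPM, without overlap (difference 2.19, SE 0.38, unadjusted p = 0.000351, adjusted p = 0.98). *Cthrc1*, a secreted modulator of Wnt signaling, was at 66.0, 114, and 133 CPM against 6.60, 20.0, and 7.30 CPM (difference 3.19, SE 0.59, adjusted p = 0.98). It reached 10 reads in 79.2% of the stricter class, 39.3% of cells with 1 to 9 reads, and 29.0% of undetected cells. DESeq2 called both (adjusted p = 0.000156 and 9.9e-05) and also *Tox*, a nuclear factor, with a difference of 2.23 over 3 mice, which was 0.67 over 5 mice. *Tox* reached 10 reads in 41.7% of the stricter class, 45.9% of cells with 1 to 9 *Lypd1* reads, and 47.6% of undetected cells. *Etv5*, an ETS transcription factor, was at 169, 148, and 143 CPM against 78.0, 70.0, and 48.7 CPM and reached 10 reads in 22 of 24 cells, against 52.5% and 54.8% of the other groups. *Cntnap2* was higher in each mouse, as the selection required, at 105, 278, and 205 CPM against 73.2, 85.5, and 91.4 CPM. These cells are also part of the wider class. *Lmo4*, *Grik3*, and the leak potassium channel *Kcnk9* had differences of 1.64, 1.24, and 3.84.

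**Figure D5:**
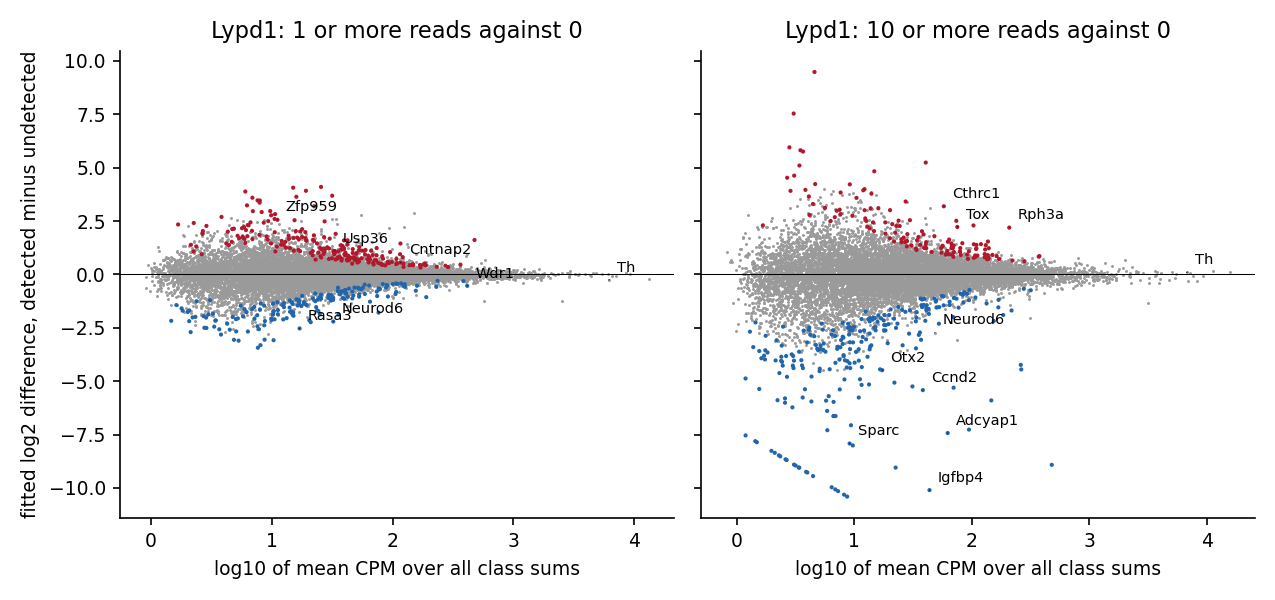
Fitted log2 difference, detected minus undetected (vertical axis), against log10 of the mean CPM over the class sums (horizontal axis) for every tested gene, with 1 or more *Lypd1* reads against 0 (left) and 10 or more against 0 (right); red and blue points have an unadjusted p under 0.05. No gene passed the adjusted threshold in either panel, and the labeled *Adcyap1*, *Igfbp4*, *Sparc*, and *Ccnd2* lie far below 0 on the right.

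In the stricter class, 16 of the 17 tested genes of the 3 lists that name VTA2 were below 0, where 49.4% of all tested genes were. Their median was -1.64 against 0.01 over all genes. Without mouse 8, 13 of 18 were below 0, and the median of the list of VTA2 alone went from -2.73 to -1.45, while without mouse 5 it was -4.92. In cells without *Neurod6* and *Grp*, where only mice 3 and 5 remained, 9 of 13 were below 0. There the list of VTA2 alone had 2 of 3 tested genes above 0 (median 0.08), a change that cannot be told apart from the loss of mouse 8. *Otx2* was at 1.08, 3.21, and 0 CPM against 2.43, 38.4, and 58.6 CPM (difference -4.48, SE 1.49, unadjusted p = 0.0159). *Grp* was higher in mouse 3 (39.4 against 6.22 CPM) and lower in mouse 5 (1.89 against 126 CPM) and mouse 8 (7.03 against 273 CPM). *Slc17a6*, the vesicular glutamate transporter VGLUT2, which loads glutamate into vesicles of some dopamine neurons, was at 13.9, 120, and 33.3 CPM against 61.1, 352, and 343 CPM (difference -2.18, SE 0.87, unadjusted p = 0.0352). Dopamine synthesis and handling genes were above 0 in 10 of 11 cases (median 0.35), where 50.6% of all tested genes were. The myelin genes *Cnp* and *Mbp* had differences of -4.45 and -4.23 that rested on mouse 3. *Cnp* was at 20.8, 29.0, and 19.3 CPM in mice 3, 5, and 8 against 1433 CPM in the undetected cells of mouse 3 and 7.09 and 71.5 CPM in those of mice 5 and 8, and without mouse 3 its difference with the mouse as a block was 0.079.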

How the data were processed

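Single-cell RNA-seq counts of 384 cells were used as deposited. Per the study's methods and labels, the authors ran Trimmomatic 0.3.2 on the reads, mapped them with TopHat2 2.1.1 (genome GRCm38.3), and made gene counts by featureCounts 1.5.0-p3 and the RefSeq annotation, leaving out reads on more than 1 gene. The counts were not normalized. Wells judged by eye to hold more than 1 cell were left out by the authors, and no doublet caller was run. The kit adds no molecular identifiers, so reads are not independent molecules and intervals cover counting error only. Spike-in and transgene entries (5.2e-06% and 0.00456% of counts) were left out.

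Cells with at least 500000 counts were kept. Counts were summed per mouse and *Lypd1* class wherever a mouse gave 3 or more cells to both. The quasi-likelihood test of edgeR 4.0.16 (R 4.3.3) was applied to these sums after TMM scaling and filterByExpr, and p-values were adjusted by Benjamini-Hochberg across the tested genes. DESeq2 1.42.0 and limma 3.58.1 (log2 of mean CPM plus 1) were alternatives. Cells are not replicates, the mouse is, and each mouse gave both classes. The edgeR fits without the block, DESeq2, and limma did not use this pairing. It entered only the fits with the mouse as a block and the exact permutation tests. Sums of the same mouse deviated together (r = 0.061 to 0.371 in 8 mice, highest with their own number in 7 of 8; 0.112 to 0.180 in the 3 mice of the stricter comparison). Shares were compared by exact sign-flip permutation over mice with scipy 1.17.1. CPM of single genes per mouse are counts scaled to 1000000 counts of the class sum over the tested genes, times its TMM factor. The scripts were tested on simulated data.

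Named genes were those of each list with the smallest p, and up to 12 a direction, in each fit with and without the block, that moved the same way in every mouse and reached a mean of 10 CPM in the higher class, ordered by p since none or few passed the threshold. Subtype lists were published marker lists copied from the study's code; the other lists hold textbook genes. The classes, genes, and lists were chosen with earlier results of these data known. The study or its series record states other numbers of cells, other numbers of males and females, and a narrower age range than the counts and labels hold. The labels were used. The study's comparison of single cells as replicates and its table of alignment metrics were not used here. The values of 1 gene are not reported here.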

Additional observations from a re-analysis of the deposited data

Results flagged for a closer look

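In 87 groups of 8 mice tested for a value far from the rest by Dixon's test, 12 had one. Many of these groups are CPM of selected genes, for which the chance rate is not known. The difference in the share of *Neurod6*-positive cells was -84.6 percentage points in mouse 8, against -23.1 to 0 in the others. Among detected sums, values apart were those of *Abca8b* in mouse 1 (143 CPM against 21.6 to 65.6), *Rasa3* in mouse 1 (17.3 against 0 to 7.79), *Grik3* in mouse 1 (362 against 27.6 to 128), *Ano3* in mouse 6 (30.4 against 4.58 to 15.1), and *Otx2* in mouse 7 (76.5 against 0 to 34.2). The detected cells of mouse 1 also had the fewest genes, with a median of 7479 against 8827 to 9992.

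Among undetected sums, values apart were those of *Cdh4* in mouse 1 (131 CPM against 11.2 to 59.2), *Gal* in mouse 1 (19.2 against 0 to 7.2), *Grik3* in mouse 4 (73.2 against 25.3 to 47.1), *Kcnj9* in mouse 6 (46.4 against 6.16 to 20.1), and *Ndnf* in mouse 3 (112 against 0.105 to 47.9). In cells under 500000 counts, which entered no comparison, *Lypd1* was detected in 30 of 175 (17.1%, exact interval 11.9 to 23.6%) at a median total of 88436 counts.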

How the results depend on the processing

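Under 33 alternatives, edgeR, DESeq2, and limma called 0 genes between detected and undetected cells (smallest adjusted p 0.134 to 1, 254 to 3153 genes at an unadjusted p under 0.05). In the stricter class, DESeq2 called 37 genes, no filter on low counts 1, mice with at least 2 cells 5, the same with the replicate block 2, and thinned cells with the block 1; leaving out a mouse gave 0 to 3, the 3 (*Tac1*, *Adcyap1*, and *Grp*) without mouse 3 and with the block. The *Neurod6* share difference was -19.9 points with positive cells from 1 count, -13.1 from 50 counts (adjusted p = 0.0313, exact), -37.4 for 10 *Lypd1* counts, -28.0 for cells with 500 CPM of *Th*, -17.0 on the C1 machine SMEAGOL and -33.6 on FRODO, and -26.6 to -14.5 without 1 mouse, and of the 6 settings named before the leave-outs the 50-count setting passed. Thinned cells (-21.8), 5 cells a class (-26.6), and 2 *Lypd1* counts (-29.1) passed too. The *Grp* difference was -25, -28.7, -20.7, and -26.6 points for 10 *Lypd1* counts, the *Th* limit, SMEAGOL, and FRODO, not passing, and -28.2 to -17.4 without 1 mouse; it passed from 1 count (-25.3), from 50 counts (-24.0), in thinned cells (-23.7), with 5 cells a class (-24.4), and from 2 *Lypd1* counts (-31.2).

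Of 1182 alternative values of named genes in the main comparison, 10 changed sign, none of them past the threshold: *Otx2* 0.049 on SMEAGOL; *Th* 0.082, *Slc6a3* 0.23, and *Ddc* 0.15 in cells without *Neurod6* and *Grp*, where with the block *Aldh1a1* was at 0.11 and *Ddc* at 0.044; *Slc6a3* 0.0075 and *Ddc* 0.017 in males; *Slc6a3* from -0.26 to 0.011 over the leave-outs of a mouse; and *Slc18a2* 0.13 on FRODO. Of 466 in the stricter comparison, 21 newly passed, and *Cnp* changed sign with the block in cells with 500 CPM of *Th* (0.036) and ran from -5.24 to 0.079 (without mouse 3, with the block) over the leave-outs. With the mouse as a replicate block alone, 0 genes were called in both comparisons, as without it; joined to another choice, it changed the counts given above. Chosen after seeing the data were the limit of 2 *Lypd1* counts, the minimum of 2 cells, the machines for the shares, and the block joined to another choice. The stricter class could not be fitted on SMEAGOL. Its fits in thinned cells and in cells without *Neurod6* and *Grp* held mice 3 and 5 only. A 3-count limit of 1.94 to 5.99 CPM bounds what a cell at 0 can show.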
